A study of Mus musculus with 9 samples.

Results

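Glycolysis splits glucose to pyruvate and lactate, and the pentose phosphate pathway draws sugar phosphate from its first steps; 32 genes of these 2 routes were followed in c-Kit+ bone marrow of 3 genotypes. The members are a fixed list of symbols: 2 glucose transporters, 3 hexokinases, 7 genes from hexose phosphate to triose phosphate, 6 from triose phosphate to pyruvate, 4 of lactate production and export, 3 pyruvate dehydrogenase kinases, 3 of the oxidative and 3 of the non-oxidative pentose phosphate branch, and Hif1a. All 32 were found among the 43629 listed genes. Of these, 31 passed a filter on low counts that 15948 genes passed in all, and Eno2, the neuronal enolase, did not.

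RNA-seq was made of marrow cells bead-selected for c-Kit, the stem cell factor receptor, from pIpC-treated C57BL/6 mice, in 3 libraries for each genotype. WT mice carried no fusion allele, Cbfb+/MYH11 mice carried 1 copy of the fusion of Cbfb with MYH11 that encodes the leukaemia protein CBFβ-SMMHC, and Cbfb+/mDE mice carried 1 copy of a fusion altered in its C-terminal multimerization domain. The groups are called WT, MYH11 and mDE below, and all 9 libraries share the strain, the pIpC treatment and the selection. The labels give no age and name no Cre line or promoter. They also do not say whether the 3 libraries of a group came from separate animals, and the p-values below reflect the spread among libraries, which may be technical. The design compares each fusion allele with WT and the fusions with each other, and the comparisons with WT share the same WT libraries.

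As background, hexokinases trap glucose as a sugar phosphate that either runs down glycolysis, where phosphofructokinase makes the committed step, or enters the pentose phosphate pathway at glucose phosphate dehydrogenase. The oxidative branch of that pathway makes NADPH, and its non-oxidative branch interconverts pentoses with glycolytic sugars and supplies ribose for nucleotides. Neutrophils depend on glycolysis for energy and on NADPH for their oxidative burst, and blood stem cells are known for a glycolytic metabolism upheld by Hif1a, the oxygen-regulated subunit of hypoxia-inducible factor.

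Between 39300366 and 50073097 reads were assigned to genes per library, and values below are normalised reads unless a scale is named. Myh11 reads were 4.70 to 8.64 in WT, 28.7 to 43.8 in mDE and 176 to 219 in MYH11, which separated the groups as labelled. Cbfb was 6535 to 7136 in WT, 4941 to 5782 in mDE and 6349 to 6910 in MYH11, where it overlapped WT. Kit, the marker used for selection, was present throughout, at 7354 to 7797 in WT, 6987 to 7622 in mDE and 3226 to 3868 in MYH11. Reads of cell type markers also differed: 20 late neutrophil markers took 11.1% to 13.2% of reads in WT, 12.7% to 15.8% in mDE and 0.785% to 2.53% in MYH11. Over the same groups the 10 monocyte and macrophage markers took 0.119% to 0.126%, 0.149% to 0.170% and 0.496% to 0.559%. The 15 mast cell and basophil markers took 0.0632% to 0.0645%, 0.0584% to 0.0697% and 0.329% to 0.512%, with the tryptase gene Tpsab1 at 0 in every library. Of the 13 mast cell and basophil markers tested, 10 rose and 3 fell in MYH11 against WT. These are bulk samples, in which fewer cells of a type and less RNA per cell cannot be told apart. The part that the cell make-up takes in the results below was not tested.

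The promoters of 4 members are shown because the balance between isozymes turned on them: Slc2a1 and Pfkp, which rose in MYH11, and Hk3 and Ldhb, which fell. Each is the 250 bases before the gene start in RefSeq on GRCm38.p6, written 5′ to 3′ in the direction of transcription. They lie at chr4:119108495-119108744 on the plus strand for Slc2a1, chr13:6648772-6649021 on the minus strand for Pfkp, chr13:55021386-55021635 on the minus strand for Hk3 and chr6:142507958-142508207 on the minus strand for Ldhb. Capitals mark matches, on either strand, to the hypoxia response core ACGTG or GCGTG and to the Runx motif TGTGGT or TGCGGT, the sequence bound by the partner of Cbfb.
Slc2a1: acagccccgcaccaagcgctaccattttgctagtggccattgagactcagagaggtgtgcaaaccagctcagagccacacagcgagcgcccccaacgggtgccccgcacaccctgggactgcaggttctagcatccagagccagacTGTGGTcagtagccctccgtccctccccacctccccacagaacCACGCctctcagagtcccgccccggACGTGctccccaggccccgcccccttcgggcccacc
Pfkp: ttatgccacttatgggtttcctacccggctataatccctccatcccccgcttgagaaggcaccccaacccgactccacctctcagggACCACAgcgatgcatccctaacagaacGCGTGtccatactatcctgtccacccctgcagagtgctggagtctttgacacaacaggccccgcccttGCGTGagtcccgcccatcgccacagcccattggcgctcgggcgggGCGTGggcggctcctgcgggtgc
Hk3: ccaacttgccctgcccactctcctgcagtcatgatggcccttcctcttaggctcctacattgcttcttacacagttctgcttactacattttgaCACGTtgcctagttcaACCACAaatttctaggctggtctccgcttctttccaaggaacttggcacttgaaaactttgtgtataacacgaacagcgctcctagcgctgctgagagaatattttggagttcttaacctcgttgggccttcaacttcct
Ldhb: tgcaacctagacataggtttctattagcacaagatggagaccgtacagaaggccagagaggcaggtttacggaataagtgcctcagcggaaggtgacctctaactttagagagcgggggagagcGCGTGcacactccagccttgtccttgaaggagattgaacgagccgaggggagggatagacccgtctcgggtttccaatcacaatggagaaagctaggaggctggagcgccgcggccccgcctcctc

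Slc2a1 held 2 hypoxia cores and 1 Runx motif, Pfkp 3 and 1, Hk3 1 and 1, and Ldhb 1 hypoxia core alone. RefSeq entries were matched for 31 of the 32 members, all but Slc2a3, with 45 promoters in all. At least 1 hypoxia core stood in 35 of these 45 promoters (77.8%), in 38.6% of all 32851 promoters and in 53.6% of the 13806 promoters of genes that passed the filter. By gene, a core was found in 28 of the 31 matched members, where 59.3% of the tested genes with an entry held it. It stood in 7 of 8 members that rose in MYH11, 15 of 16 that fell and 6 of 6 that were not called, so its presence did not separate the directions. The E-box CACGTG, which contains the core ACGTG, stood in 5 member promoters (11.1%, against 8.004% of promoters of genes that passed). The Runx motif stood in 8 (17.8%, against 18.2%). By gene it was found in 8 of the 31 matched members, where 21.3% of the tested genes with an entry held it, and in 4 of 8 members that rose, 3 of 16 that fell and 1 of 6 that were not called. Such matches describe letters in a window and show no binding.

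In MYH11 marrow all 6 pentose phosphate genes fell, 4 of 7 genes from hexose phosphate to triose phosphate rose, and the glucose transporters, hexokinases and pyruvate dehydrogenase kinases each held genes that rose and genes that fell. By limma on log2(normalised reads + 1), with Benjamini-Hochberg adjustment over all 15948 genes and a threshold of 0.05, 8 of 31 members rose against WT, 17 fell and 6 were not called. Changes were widespread in this comparison: 59.8% of all genes tested were called, 32% up and 27.8% down. Among the members 80.6% were called, 25.8% up and 54.8% down, so the members' share of falls lay above that of all genes tested. Falls also outnumbered rises among 10 reference genes often taken as housekeeping, such as Actb and Ppia, of which 6 fell (60%) and 1 rose, with a median log2 fold change of -0.20. Under a stricter filter of 5 CPM in 3 libraries, which kept 31 members and 10610 genes in all, 3607 genes fell and 3653 rose. With the filter used throughout, the median log2 fold change was -0.29 over the members and 0.02 over all genes tested. The 32 genes together took 1.39 ± 0.0501% of reads in WT (SD, n = 3), 1.35 ± 0.0599% in mDE and 1.21 ± 0.0198% in MYH11. The members that rose were Slc2a1, Hk1, Pfkl, Pfkp, Aldoc, Tpi1, Pdk2 and Hif1a.

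**Figure D1:**
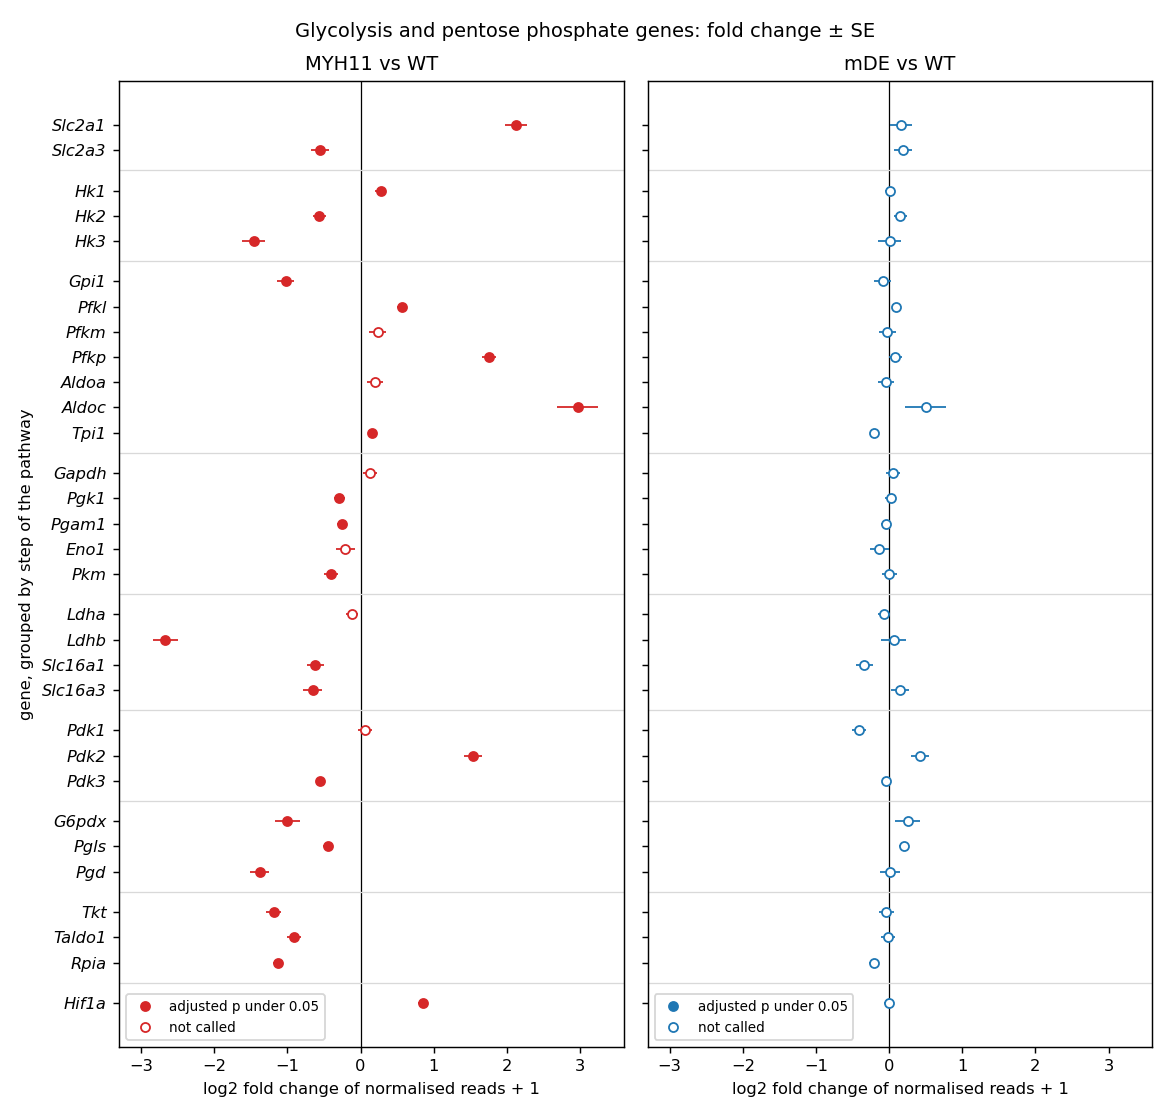
Log2 fold change with its SE (horizontal axis) for each of the 31 tested members (rows, grouped by step of the pathway) in MYH11 against WT (left) and mDE against WT (right), with filled points for an adjusted p under 0.05 and open points otherwise. On the left 8 points are called above 0 and 17 below it, and on the right every point is open.

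The glucose transporters moved in opposite directions. Slc2a1, the widely expressed basal glucose transporter (ENSMUSG00000028645, GRCm38 chromosome 4, bases 119108711 to 119137983), had 527, 649 and 607 in WT, 621, 675 and 693 in mDE and 2614, 2038 and 3255 in MYH11. Every MYH11 library lay above every WT and mDE library, and MYH11 replicate 3 was the highest. The mean was 4.43-fold higher than in WT, with a log2 fold change of 2.13 ± 0.15 (SE) and an adjusted p of 3.95e-06 from limma. Slc2a3, the high-affinity transporter of neutrophils and neurons, had 10415, 13569 and 13319 in WT, 12951, 13733 and 15688 in mDE and 8730.2, 7308 and 9318 in MYH11. All 3 MYH11 libraries lay below the WT range, whose own lowest value was replicate 1, with a log2 fold change of -0.55 ± 0.13 (SE) and an adjusted p of 0.00409. Summed per kb of merged exons the 2 genes gave 1886 ± 259 reads per kb in WT and 1918 ± 314 in MYH11 (SD, n = 3), levels that overlapped. On this scale Slc2a1 went from 9.02 ± 0.428% of the transporter total to 38.9 ± 2.74%, and it was 8.87 ± 0.449% in mDE.

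Hexokinase, the step that commits glucose to the cell, shifted from Hk3 towards Hk1. Hk3, the isoform of myeloid cells, had 20931, 26388 and 24969 in WT, 22407, 24487 and 25649 in mDE and 7511, 11479.8 and 7642 in MYH11. The MYH11 libraries lay well below the others, and replicate 2 was the highest of the 3, as it was for 52.8% of all genes that fell. The Hk3 mean in MYH11 was 2.71-fold lower than in WT, with a log2 fold change of -1.46 ± 0.16 (SE) and an adjusted p of 4.59e-05 from limma. Hk1, the broadly expressed isoform, had 14358, 14863 and 14720.5 in WT, 14958, 15266 and 14180.0 in mDE and 19274, 15988 and 18001 in MYH11. The MYH11 values were all higher than the WT values, by a small margin in replicate 2, and the log2 fold change was 0.27 ± 0.07 with an adjusted p of 0.00799 from limma. Hk2, the inducible isoform, had 4204, 4685 and 4553 in WT, 4764, 5158 and 4974 in mDE and 2857, 3515 and 2774 in MYH11, and fell in MYH11 by 0.56 on the log2 scale (SE 0.09, limma, adjusted p = 0.000476). Summed per kb, hexokinase reads went from 9012 ± 841 in WT to 5003 ± 504 in MYH11, 55.5% of the WT level. Within that sum Hk3 went from 72.5 ± 1.84% to 47.7 ± 7.11% and Hk1 from 19.1 ± 1.51% to 42.1 ± 7.42% (SD, n = 3). Which of the 2 led in MYH11 depended on the library and on the length used. Per kb of merged exons Hk3 led in replicate 2 alone, at 55.9% against 33.6% for Hk1. Hk1 led in replicate 1 (47.3% against 42.7%) and in replicate 3 (45.4% against 44.6%). Per kb of the longest transcript the mean share of Hk1 was 55.9% and that of Hk3 36.7%.

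In the steps from hexose phosphate to triose phosphate, 4 of 7 genes rose in MYH11 against WT, 1 fell and 2 were not called. Gpi1, the isomerase that turns glucose phosphate into fructose phosphate, was the gene that fell, with 56967, 64785 and 65219.7 in WT, 52048, 56139 and 68838 in mDE and 30546, 33553 and 27930.1 in MYH11. No MYH11 library reached the lowest WT or mDE value, and the log2 fold change was -1.02 ± 0.12 (limma, adjusted p = 6.28e-05). Gm1840, a copy 98.7% identical to Gpi1 over 1046 bases, had 770.3 ± 50.9 reads in WT and 344 ± 18.7 in MYH11, so reads shared by the 2 could be split between them.

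Phosphofructokinase is the main control point of glycolysis, and its platelet-type gene Pfkp (ENSMUSG00000021196, GRCm38 chromosome 13, bases 6579768 to 6648777) rose most. Pfkp had 2483, 2733 and 2735 in WT, 2598, 2930.3 and 2919 in mDE and 8828, 7936 and 10279.7 in MYH11. The 3 MYH11 values were all above any other library, the mean was 3.40-fold that of WT, and the change was 1.76 ± 0.09 on the log2 scale (limma, adjusted p = 8.43e-07). Pfkl, the liver-type gene, had 3067, 3003 and 2885 in WT, 3016, 3196 and 3394 in mDE and 4746, 4172 and 4325 in MYH11, and rose by 0.56 ± 0.06 (adjusted p = 6.32e-05). Pfkm, the muscle-type gene, had 2577, 2333 and 2355 in WT, 2788, 2332 and 2062 in mDE and 3224, 2632 and 2716 in MYH11. Its MYH11 libraries lay just above the WT libraries and overlapped the mDE libraries, and the change of 0.23 ± 0.11 was not called (adjusted p = 0.104). Per kb, Pfkp supplied 14.5 ± 1.20% of phosphofructokinase reads in WT and 30.7 ± 3.27% in MYH11, and Pfkm went from 52.9 ± 1.44% to 39.0 ± 2.43%.

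Aldolase splits the hexose bisphosphate, and almost all of its reads came from Aldoa, the muscle and blood form. Aldoa had 32656, 39305 and 37489 in WT, 32232, 34621 and 39948 in mDE and 44492, 37121 and 43627 in MYH11, groups that overlapped, and its change of 0.19 ± 0.11 was not called (limma, adjusted p = 0.154). Aldoc, the brain form, had 47.3, 29.8 and 25.8 in WT, 36.4, 52.2 and 55.8 in mDE and 323, 204 and 289 in MYH11. It showed the largest log2 rise of the 31 tested members, 2.97 ± 0.28 (adjusted p = 2e-05), from a low level: per kb it was 0.0860% of aldolase reads in WT and 0.572% in MYH11. Tpi1, which interconverts the triose phosphates, had 15075, 14522 and 14866 in WT, 12530.1, 12829 and 13297 in mDE and 17780.2, 15389 and 16615 in MYH11. The MYH11 libraries lay above WT by little, 0.16 ± 0.06 on the log2 scale, and the adjusted p of 0.0435 was near the threshold. The Tpi1 call was lost when any 1 WT library, MYH11 replicate 1 or 3, or mDE replicate 1 or 2 was left out, with adjusted p between 0.0532 and 0.158. It was also lost under the 3 other scalings tried, without the filter on low counts, with only the 2 groups fitted, and with edgeR or limma-voom on recovered reads (adjusted p between 0.0573 and 0.067).

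Between triose phosphate and pyruvate 3 of 5 tested genes fell in MYH11 against WT by small amounts, and 2 were not called. Pkm, the pyruvate kinase of most adult tissues, had 61433, 70729.7 and 72822 in WT, 61673, 66637 and 77165 in mDE and 52318, 52866 and 49407 in MYH11. The MYH11 libraries lay below all WT libraries, with a log2 fold change of -0.40 ± 0.10 (SE) and an adjusted p of 0.00714. Pgk1, which makes the first ATP of the payoff phase, had 18472, 20209 and 20536 in WT, 18869.5, 19107 and 22194 in mDE and 16722, 15876 and 15874 in MYH11, a change of -0.29 ± 0.07 (adjusted p = 0.00822). Pgam1, the phosphoglycerate mutase, had 7027, 7115 and 6865 in WT, 6462, 6412 and 7533 in mDE and 5958, 6151 and 5588 in MYH11, a change of -0.25 ± 0.07 (adjusted p = 0.0115).

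Gapdh, the dehydrogenase often used as a reference gene, had a level of 17898 reads per kb of merged exons in WT and was not called. Its values were 67669, 77238 and 77009.7 in WT, 71288, 74385 and 85089 in mDE and 83881, 78385 and 79618 in MYH11, with MYH11 just above WT, and its log2 change was 0.13 ± 0.09 (limma, adjusted p = 0.271). Gapdh also has 71 annotated copies at 95% identity or more over at least 200 bases, which held 1.58% as many reads as Gapdh in WT. Eno1, the main enolase, had 34263, 40119 and 40209 in WT, 27966, 37137 and 40055 in mDE and 34811, 32287 and 31839.7 in MYH11. The groups overlapped and its change of -0.21 ± 0.13 was not called (adjusted p = 0.189). Near-identical copies of Pgk1, Pgam1, Ldha and Ldhb held 0.156%, 1.15%, 0.0618% and 0.724% as many reads as those genes in WT. Eno2 had at most 5.47 reads in any library and was not tested.

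Eno1b, a gene 99.5% identical to Eno1 over 1736 bases, stood apart in 1 library. It had 15.4, 14.4 and 14.1 in WT, 2129, 18.9 and 16.4 in mDE and 18.1, 10.2 and 8.86 in MYH11. The value in mDE replicate 1 exceeded that of every other library by far, and no other library reached 20 reads. In the same library Eno1 was at its lowest of the 9, and the sum of Eno1 with its 2 near-identical copies was 30149.6, 37236 and 40148 in mDE, also lowest in replicate 1. How reads that match both genes were divided is not given in the sources used here.

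**Figure D2:**
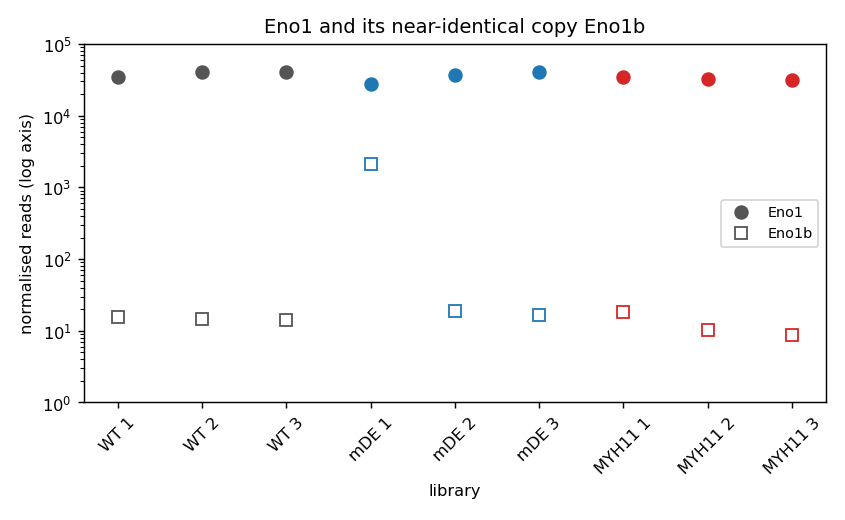
Normalised reads (log axis) of Eno1 (filled circles) and its near-identical copy Eno1b (open squares) in each of the 9 libraries, coloured by group (grey WT, blue mDE, red MYH11). Eno1b is between 8.86 and 18.9 in 8 libraries and 2129 in mDE replicate 1, where Eno1 is lowest at 27966.

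At the lactate end, 3 of 4 genes fell in MYH11 against WT and 1 was not called. Ldhb, the heart-type lactate dehydrogenase subunit that favours turning lactate back into pyruvate (ENSMUSG00000030246, GRCm38 chromosome 6, bases 142490249 to 142507957), had 1972, 1759 and 2043 in WT, 1803, 1972 and 2274 in mDE and 318, 382 and 225 in MYH11. The MYH11 libraries were far below all others. The mean was 6.24-fold lower than in WT, and the log2 change of -2.67 ± 0.17 (limma, adjusted p = 2.2e-06) was the largest fall of the 31 tested members. Ldha, the subunit that favours lactate formation, had 27225, 29576 and 29462 in WT, 26838, 25409 and 30118 in mDE and 28299.8, 24504 and 26600.1 in MYH11. Its groups overlapped and its change of -0.12 ± 0.08 was not called (adjusted p = 0.23). Ldha thus supplied 87.6 ± 1.10% of lactate dehydrogenase reads per kb in WT and 97.6 ± 0.719% in MYH11. Slc16a3, a lactate exporter of glycolytic cells, had 3485, 4342 and 4311 in WT, 3933, 4314 and 5259 in mDE and 2843, 2526 and 2329.6 in MYH11, a change of -0.65 ± 0.13 (adjusted p = 0.00158). Slc16a1, a monocarboxylate transporter that works in both directions, had 6687, 6098 and 6102 in WT, 5979, 5013 and 4122 in mDE and 4184, 4025 and 4094 in MYH11, a change of -0.62 ± 0.11 (adjusted p = 0.0012). Both transporters were lower in all 3 MYH11 libraries than in any WT library, and their shares of the summed level overlapped between the groups.

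The pyruvate dehydrogenase kinases, which switch off pyruvate dehydrogenase inside mitochondria and so hold back the conversion of pyruvate to acetyl-CoA, did not move together. Pdk2 had 325, 252 and 281 in WT, 405, 405 and 341 in mDE and 875, 744 and 879.9 in MYH11. MYH11 libraries stood above all others, and the mDE libraries stood above WT. Against WT the MYH11 change was 1.54 ± 0.12 on the log2 scale, 2.91-fold (limma, adjusted p = 6.99e-06). Pdk3, the most abundant of the 3, had 3721, 3963 and 3969.9 in WT, 3749, 3581 and 3985 in mDE and 2746, 2622 and 2554 in MYH11, and fell with a log2 change of -0.56 ± 0.06 (adjusted p = 2.92e-05). Pdk1, a known target of hypoxia-inducible factor, had 2769, 2198 and 2490.0 in WT, 2023, 1711 and 1843 in mDE and 2798, 2529 and 2456 in MYH11. Its MYH11 and WT libraries overlapped, and the change of 0.07 ± 0.10 was not called (adjusted p = 0.573). Per kb, Pdk2 went from 4.70 ± 0.616% of kinase reads in WT to 16.2 ± 1.32% in MYH11, and Pdk3 from 78.7 ± 2.54% to 63.4 ± 1.10%.

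**Figure D3:**
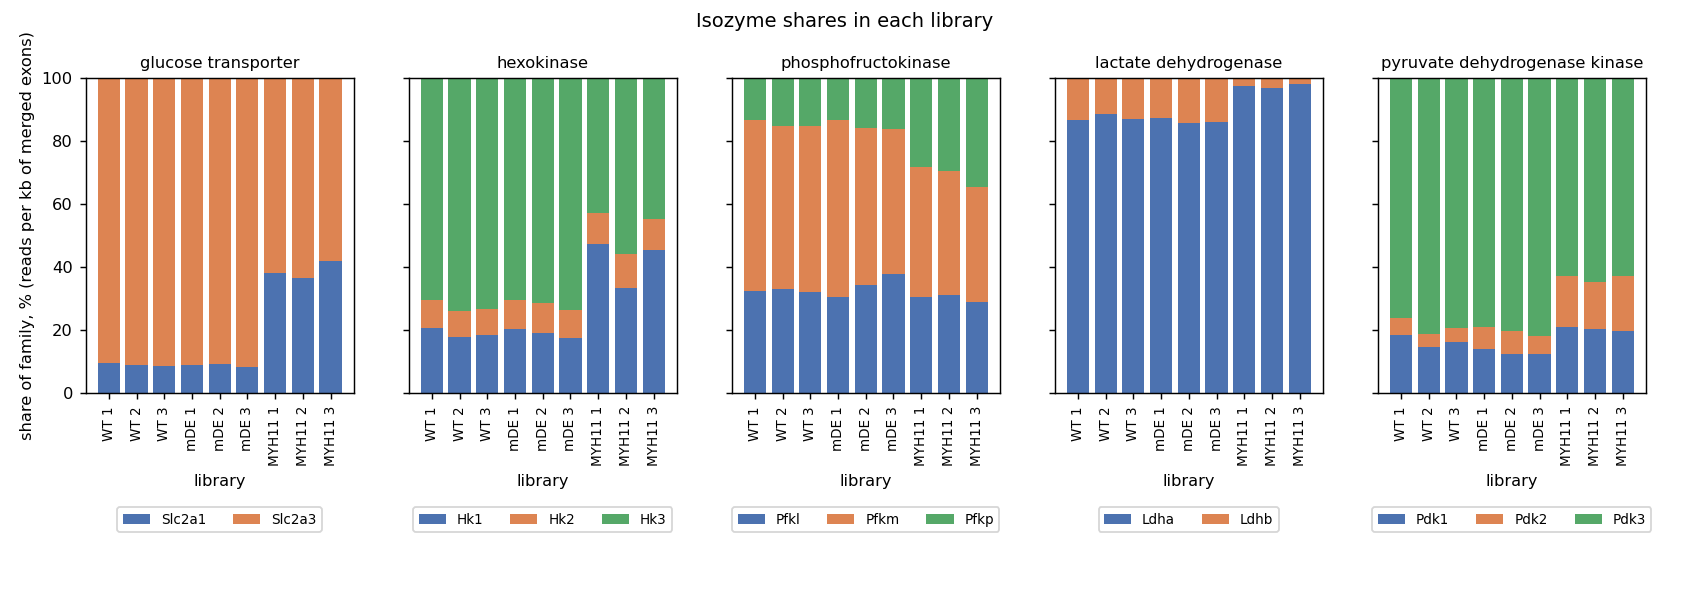
Share of each isozyme (percent of the family's reads per kb of merged exons, stacked bars) in each of the 9 libraries for 5 families. The 3 MYH11 bars differ from the 6 others in every family, with more Slc2a1, Hk1, Pfkp, Ldha and Pdk2 and less Slc2a3, Hk3, Pfkm, Ldhb and Pdk3.

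All 6 pentose phosphate members fell in MYH11 against WT, where 27.8% of all genes tested did. Their summed level per kb was 42502 ± 3019 reads per kb in WT, 43833 ± 4011 in mDE and 20652 ± 2661 in MYH11 (SD, n = 3), so MYH11 held 48.6% of the WT level. The oxidative branch was at 47.8% of WT and the non-oxidative branch at 49.0%. The 6 genes stayed called when any 1 of the 9 libraries was left out.

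In the oxidative branch, G6pdx, the glucose phosphate dehydrogenase that makes the first NADPH, had 25938, 30442 and 30040.0 in WT, 32926, 31776 and 38267 in mDE and 13329, 19309 and 11492 in MYH11. The MYH11 values spread more widely than the others, with replicate 2 the highest, but none reached WT. The mean was 1.96-fold lower than in WT (limma, adjusted p = 0.000754). Pgd, which makes the second NADPH and releases ribulose phosphate, had 33025, 38342 and 38939 in WT, 33226, 36335 and 41849 in mDE and 13851, 16837 and 12029.8 in MYH11. It had the largest fall of the 6, 2.58-fold, with a log2 change of -1.38 ± 0.13 (adjusted p = 2.13e-05). Pgls, the lactonase between them, had 3305, 3106 and 3161 in WT, 3560.5, 3395 and 4058 in mDE and 2359.7, 2338 and 2338 in MYH11, the smallest fall of the 6 (-0.44 ± 0.07, adjusted p = 0.000335).

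In the non-oxidative branch, Tkt, the transketolase, had 74682, 83004 and 83937 in WT, 72736, 77453 and 84976 in mDE and 35845, 39025 and 31545 in MYH11. The MYH11 libraries held less than every other library, and the change was -1.19 ± 0.10 on the log2 scale (limma, adjusted p = 1.02e-05). Rpia, the isomerase that makes ribose phosphate, had 9164, 8722 and 8833 in WT, 7647, 7609 and 7793 in mDE and 4188, 4309 and 3707 in MYH11. Its 3 groups did not overlap, with mDE below WT and MYH11 below both, and against WT the MYH11 change was -1.13 ± 0.06 (adjusted p = 7.87e-07). Taldo1, the transaldolase, had 27639.7, 31884 and 31573 in WT, 27947, 28869 and 33475 in mDE and 17252, 16664 and 14692 in MYH11, a change of -0.91 ± 0.09 (adjusted p = 3.66e-05).

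**Figure D4:**
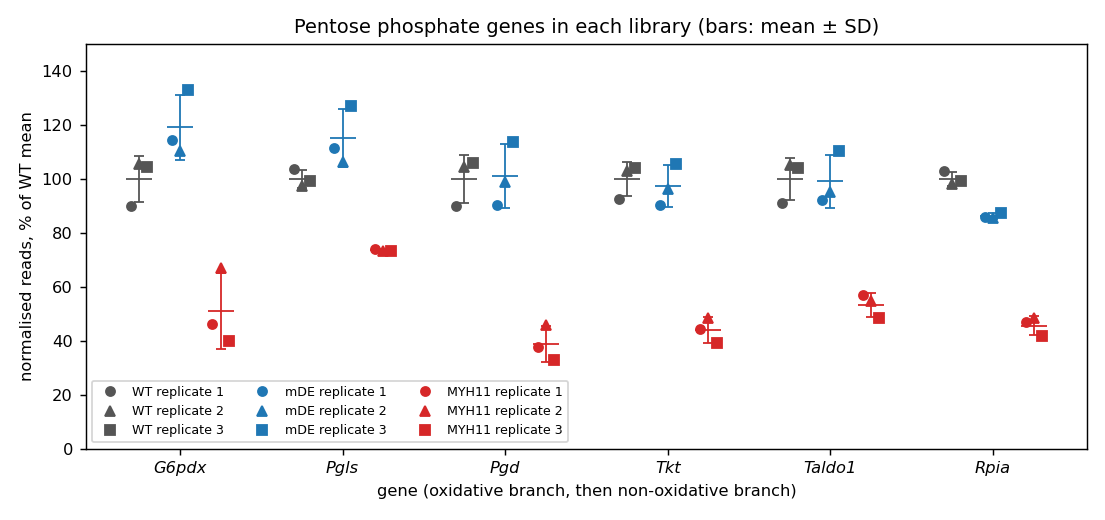
Normalised reads of the 6 pentose phosphate genes in each library as a percentage of the gene's WT mean (points, one shape per replicate), with the mean and SD of each group as bars. The MYH11 points lie below all WT and mDE points for every gene, and the fall is smallest for Pgls.

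Reads of late neutrophil markers were also low in MYH11. The 6 pentose phosphate genes took 0.402, 0.429 and 0.426% of reads in WT replicates 1 to 3, 0.401, 0.412 and 0.433% in mDE and 0.223, 0.257 and 0.201% in MYH11. The 20 late neutrophil markers, all of which fell in MYH11, took 11.1, 13.2 and 13.1%, 12.9, 12.7 and 15.8% and 1.40, 2.53 and 0.785% of reads in the same libraries. Among MYH11 libraries replicate 2 was highest and replicate 3 lowest on both counts, and WT replicate 1 was the lowest WT library on both. In mDE the orders differed, as replicate 1 was lowest on pentose phosphate reads and replicate 2 on neutrophil reads. Of the 9 early granulocyte markers in the table, 7 fell in MYH11. The 9 took 0.948% to 1.11% of reads in WT, 0.715% to 0.932% in mDE and 0.427% to 0.596% in MYH11. In MYH11 replicate 2 all 8 members that rose were at their lowest of the 3 MYH11 libraries, and 10 of the 17 that fell were at their highest. Over all genes the same held for 52.2% of those that rose and 52.8% of those that fell. Of the 15 cell cycle genes, 13 fell in MYH11 against WT and 1 fell in mDE against WT. The 15 took 0.535% to 0.598% of reads in WT, 0.443% to 0.549% in mDE and 0.508% to 0.561% in MYH11. The part of these cell types and of the cell cycle in the fall of the pathway was not tested.

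**Figure D5:**
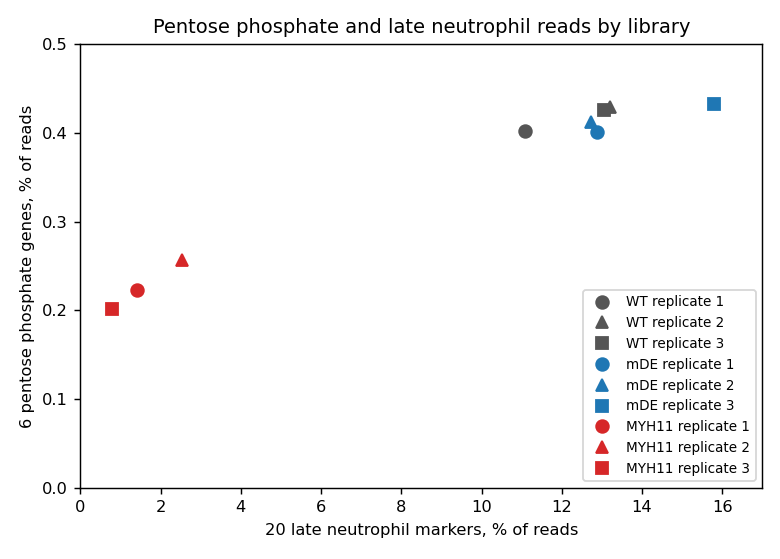
Percent of reads in the 6 pentose phosphate genes (vertical axis) against percent of reads in 20 late neutrophil markers (horizontal axis) in each of the 9 libraries, with colour for the group and shape for the replicate. The MYH11 libraries lie at 0.785 to 2.53% neutrophil reads and 0.201 to 0.257% pentose phosphate reads, apart from the 6 others, and follow the same order on both axes.

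Hif1a, the regulator on the list, rose in MYH11. It had 2961, 3055 and 3400.3 in WT, 3036, 3107 and 3241 in mDE and 6022, 5473 and 5518 in MYH11. The MYH11 libraries lay above all others, and the change was 0.85 ± 0.06 on the log2 scale, 1.81-fold (limma, adjusted p = 5.45e-06).

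In mDE marrow no member was called against WT. By limma 0 of 31 members passed the threshold, where 1.24% of all genes tested did, 0.821% up and 0.42% down, and 6 members had an unadjusted p under 0.05, a level that 19.8% of all genes reached. The quasi-likelihood test of edgeR and limma-voom on recovered reads also called 0, and DESeq2 called 4, Pdk2 up and Pdk1, Tpi1 and Rpia down, where it called 5.92% of all genes. A small count in this comparison does not show that the groups are alike. The members with an unadjusted p under 0.05 were Pdk1, Rpia, Pdk2, Tpi1, Pgls and Slc16a1.

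Pdk1 was the member nearest the threshold. Its 3 mDE libraries, 2023, 1711 and 1843, all lay below the WT range of 2198 to 2769, with a log2 change of -0.42 ± 0.10 (limma, adjusted p = 0.0724). Pdk2 differed the other way, 0.42 ± 0.12 (adjusted p = 0.117), and its mDE libraries all lay above WT. Per kb, Pdk1 was 16.6 ± 1.93% of kinase reads in WT and 13.03 ± 0.876% in mDE, and Pdk2 was 4.70 ± 0.616% and 6.64 ± 0.857% (SD, n = 3), without overlap between the groups for either. Rpia had a change of -0.21 ± 0.06 (adjusted p = 0.112) and Tpi1 of -0.20 ± 0.06 (adjusted p = 0.128), with all mDE libraries below all WT libraries for both genes. Slc16a1 had a change of -0.34 ± 0.11 (adjusted p = 0.157), and its mDE values ran from 4122 to 5979. Among oxidative pentose phosphate genes, G6pdx (0.25 ± 0.17) and Pgls (0.20 ± 0.07) had mDE libraries that all lay above WT, and neither was called (adjusted p = 0.438 and 0.156). Of the 31 tested members, 4 had mDE libraries all above WT, Hk2 among them, 4 had them all below and 23 overlapped. The share of all genes with such a separation was not computed, so it gives these uncalled members no added weight. The genes at the head of the MYH11 results differed little here: the log2 change was 0.16 ± 0.15 for Slc2a1, 0.09 ± 0.09 for Pfkp, 0.01 ± 0.16 for Hk3 and 0.06 ± 0.17 for Ldhb.

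Between the fusion alleles, 9 members were higher and 16 lower in MYH11 than in mDE, and 6 were not called, where 55.6% of all genes tested were called, 29.6% up and 26% down. This comparison shares the MYH11 libraries with the comparison against WT. Pdk1 was called here and not against WT, with a log2 change of 0.48 ± 0.10 (limma, adjusted p = 0.00209). Slc16a1 was called against WT and not here, with -0.28 ± 0.11 (adjusted p = 0.0604), but it was called with DESeq2 (adjusted p = 0.0226) and by limma without mDE replicate 3 (adjusted p = 0.0027). Pgam1 was lower in MYH11 by limma (-0.20 ± 0.07, adjusted p = 0.0311). That call was lost with only the 2 groups fitted (adjusted p = 0.0659) and without mDE replicate 3 or MYH11 replicate 1 or 3 (adjusted p between 0.0639 and 0.113). The largest differences were -2.73 ± 0.17 for Ldhb (adjusted p = 2.38e-06), 2.47 ± 0.28 for Aldoc (adjusted p = 6.87e-05) and 1.96 ± 0.15 for Slc2a1 (adjusted p = 7.28e-06). All 6 pentose phosphate members were lower in MYH11, from -0.64 ± 0.07 for Pgls to -1.39 ± 0.13 for Pgd.

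Genes beside the members were followed in lists of the surrounding routes in MYH11 against WT, with up to 3 called genes of each list named by smallest adjusted p. Of the 90 tested genes of these lists 75.6% were called, against 59.8% of all genes. Rises made up 35.6% of the 90 and falls 40%, against 32% and 27.8% of all genes tested. The same 32% and 27.8% are the background for each list that follows. Among other isozymes and side enzymes of glycolysis 5 of 20 tested genes rose and 9 fell. Gpd2, the mitochondrial glycerol phosphate dehydrogenase of a shuttle that carries glycolytic electrons, fell (-1.06 ± 0.08, limma, adjusted p = 4.73e-06), and Adpgk, a glucokinase that uses ADP, fell too (-2.78 ± 0.24), with 32774 to 44039 reads in WT and 3887 to 8551 in MYH11. Pfkfb2, which sets the level of the activator of phosphofructokinase, rose (1.64 ± 0.14, adjusted p = 1.11e-05). For pyruvate entry into mitochondria 3 of 11 tested genes rose and 7 fell. The pyruvate carrier subunit Mpc2 fell (-1.07 ± 0.09), while Pdp2, a phosphatase that switches pyruvate dehydrogenase on, and Pdpr, a regulatory subunit for such phosphatases, rose (1.12 ± 0.12 and 0.75 ± 0.08). Pdk4 had at most 1.93 reads in any library.

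Other pentose phosphate enzymes were mixed, as 2 of 8 tested genes rose and 4 fell. Rpe, the epimerase of the non-oxidative branch that was not among the members, fell (-0.97 ± 0.08, limma, adjusted p = 6.85e-06), as did H6pd, the form of the oxidative branch in the endoplasmic reticulum (-0.40 ± 0.06). Prps2, which builds the activated ribose used for nucleotides, rose (0.36 ± 0.07). Among other sources of NADPH 4 of 8 tested genes rose and the other 4 were not called. Idh1 and Idh2, the NADPH-making isocitrate dehydrogenases of cytosol and mitochondria, rose by 0.43 ± 0.05 and 0.54 ± 0.08 (adjusted p = 5.19e-05 and 0.000326), and Aldh1l1, a folate dehydrogenase, rose by 2.77 ± 0.48 with 258, 274 and 1037 reads in the MYH11 libraries against 51.7 to 82.0 in WT. For glycogen and galactose entry 2 of 11 tested genes rose and 7 fell. Gys1, the glycogen synthase outside liver, Gbe1, the branching enzyme, and Ugp2, which makes the glucose donor, fell, with log2 changes of -1.78 ± 0.12, -1.77 ± 0.13 and -1.02 ± 0.09.

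Around Hif1a, for regulators of hypoxia-inducible factor 2 of 8 tested genes rose and 4 fell. Egln3, a prolyl hydroxylase that marks the factor for destruction and is itself induced by it, fell (-1.32 ± 0.09, limma, adjusted p = 3.92e-06), and so did Egln2 (-0.21 ± 0.06). Epas1, the related subunit, rose from a low level (1.25 ± 0.29, with 23.0 to 34.1 reads in WT and 48.6 to 83.3 in MYH11). Among targets outside glycolysis 5 of 14 tested genes rose (35.7%) and 4 fell (28.6%), near the 32% and 27.8% of all genes tested. Kdm3a, a histone demethylase, rose (0.78 ± 0.06). Ero1l, an oxidase of protein folding, and Mxi1, a Myc antagonist, fell (-0.76 ± 0.06 and -0.85 ± 0.06). Among glucose-sensing and Myc regulators 9 of 10 tested genes rose and 1 fell. Txnip and its relative Arrdc4, which restrain glucose uptake and are induced by it, rose by 0.96 ± 0.09 and 1.29 ± 0.11, and Rptor, the scaffold of the growth kinase complex, rose by 0.72 ± 0.06. In mDE against WT, 1 of the 90 tested genes of these lists was called (1.11%), near the 1.24% of all genes tested. That gene, Arrdc4, had 414, 425 and 342 in WT, 551, 594 and 673 in mDE and 1008, 959.7 and 915 in MYH11. All 3 mDE libraries lay above WT and below MYH11, and the mDE change was 0.62 ± 0.11 (limma, adjusted p = 0.0326).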

How the data were processed

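RNA-seq of 9 libraries gave 1 table of values per gene and library. Per the submitters' processing notes, CASAVA 1.8.2, STAR 2.4, RSEM, DESeq2 and the GRCm38 build were used, with no role or order given, and whether counting used strand is not given in the sources used here. The deposited values are a normalised signal, reads divided by a factor per library: 100.0% of them were whole multiples of 1 value per library (relative tolerance 1e-06), so reads were recovered for 39300366 to 50073097 per library. Fold change and p-value columns the authors deposited name no comparison and were not used here. Lengths and coordinates came from GENCODE M21 for 42462 of 43629 identifiers. Symbols came from a separate list of gene names, with GENCODE M21 names where that list had none.

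The main test was limma 3.58.1 with a trended prior on log2(deposited value + 1) of the 15948 genes that passed filterByExpr of edgeR 4.0.16, over all 3 groups with no covariate, 6 residual degrees of freedom and Benjamini-Hochberg adjustment at 0.05 (R 4.3.3). Alternatives were other scalings, pseudocounts of 0.5 and 4, other filters, edgeR, DESeq2 1.42.0 and limma-voom on recovered reads, other fits and each library left out. On recovered reads edgeR called 9556, 188 and 8888 genes in MYH11 against WT, mDE against WT and MYH11 against mDE, where limma called 9536, 198 and 8869. The scripts were tested on simulated data. Levels per kb use merged exons, and copies were found with BLAST+ 2.17.0. The 32 members, Kit, Cbfb and Myh11 were named, with up to 3 called genes of each further list for MYH11 against WT and 2 for mDE against WT, by smallest adjusted p. The members and lists were chosen with earlier results of these data known. Counting error limits the precision of genes with few reads, such as Eno2 and Aldoc.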

Additional observations from a re-analysis of the deposited data

How the results depend on the processing

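Over 21 alternatives, 9 of which left out 1 library each, no called member changed sign in any comparison. In MYH11 against WT all 17 members that fell stayed called with any 1 library left out, and 7 to 8 rose, because of Tpi1 alone. Genes called in that comparison ran from 8355 to 9869 with 1 library left out, and in MYH11 against mDE from 7679 to 8891, with 9 to 10 members up and 15 to 16 down.

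The comparison of mDE with WT moved more. DESeq2 called 1 member up and 3 down, against 0 and 0, and without mDE replicate 1 limma called 1 down, Slc16a1 (0 to 1 over the 9 libraries left out in turn). Genes called, 198 with limma, were 123 under a filter of 5 CPM in 3 libraries, 123 with only the 2 groups compared, 944 with DESeq2 and 32 to 262 with 1 library left out. They were 89, 32 and 39 without WT replicate 1, 2 or 3, 123 and 90 without mDE replicate 2 or 3, and 86 and 107 without MYH11 replicate 1 or 3. The cause was not tested.

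Deviations of same-numbered libraries from their group means correlated between -0.147 and 0.125, and those of differently numbered libraries between -0.178 and 0.207. Same-numbered libraries were thus no more alike than others. With 3 libraries a group, these values do not settle whether the libraries were paired. With the replicate number as a block, 101 genes and 1 member, Pdk1 (down), were called in mDE against WT, and 9 members rose, Pfkm among them (adjusted p = 0.0194), and 17 fell in MYH11 against WT. In MYH11 against mDE the block called Slc16a1 (0.0343) and Pfkm (0.0133) and lost Pgam1 (0.0545).

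Hk2's share of hexokinase reads depended on the length used: MYH11 libraries lay above WT per kb of merged exons and overlapped WT per kb of the longest transcript. Levels of shares moved too. In WT, Pfkp was 14.5% of its family per kb of merged exons, 15.7% per kb of the longest transcript and 32.9% of undivided reads, Pdk1 16.6%, 19.6% and 37.3%, and Slc2a1 9.02%, 8.43% and 4.58%. In MYH11 the leading phosphofructokinase by mean share depended on the scale. It was Pfkm per kb of merged exons (39.0%), Pfkl per kb of the longest transcript (36.9%) and Pfkp in undivided reads (55.2%). Depth limits Eno2 and Aldoc most among the members.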

Other observations

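Genes around the pathway that lie outside the naming rule were chosen after their values were seen. Pklr, the pyruvate kinase of red cells and liver, had 3919, 3853 and 3666 in WT, 4004, 3790.1 and 2053 in mDE and 337, 372 and 121 in MYH11, and fell in MYH11 against WT by 3.94 on the log2 scale (SE 0.40, limma, adjusted p = 3.03e-05). The mDE replicate 3 library lay below the other mDE libraries. The 13 erythroid markers in the table went both ways in MYH11 against WT, 5 up, 4 down and 4 not called, and together took 0.261% to 0.314% of reads in WT, 0.186% to 0.334% in mDE and 0.397% to 0.551% in MYH11. MYH11 libraries were thus lowest on Pklr and highest on the marker sum, while mDE replicate 3 was the lowest mDE library on Pklr and the lowest of all 9 on the sum. Pfkfb3 and Pfkfb4 make the activator of phosphofructokinase and are known to be induced by hypoxia. Both fell in MYH11 with log2 changes of -0.99 ± 0.10 and -1.84 ± 0.17 (limma, adjusted p = 2.93e-05 and 1.49e-05), while Pfkfb2 rose. The 14 tested targets of hypoxia-inducible factor outside glycolysis went both ways, 5 up, 4 down and 5 not called. Pygl, the glycogen phosphorylase of liver and neutrophils, fell from 39400.1 ± 4493 reads to 12425 ± 2813 (SD, n = 3), and Pygb, the brain form, rose from 1452 ± 40.5 to 2749 ± 202, with log2 changes of -1.68 ± 0.16 and 0.92 ± 0.10.

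Nnt, the mitochondrial transhydrogenase that makes NADPH, was uneven within groups. It had 1967, 1921 and 3338 in WT, 2094, 4846 and 5012 in mDE and 1881, 2222 and 2349 in MYH11. WT replicate 3 and mDE replicates 2 and 3 were high and the 6 others low. Nnt was not called in any comparison with WT (limma, adjusted p = 0.77 for MYH11 and 0.297 for mDE). As background, the C57BL/6J substrain is known to carry a deletion within Nnt and other C57BL/6 substrains do not, and the labels name no substrain.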
